A study of Mus musculus with 8 samples.

Results

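Potassium channel genes were examined in the left ventricle of mice given HFD-LNAME and of mice given Normal Chow. Members are the genes whose name starts with Kcn, lower-case letters and a digit and whose mean count over the 8 libraries was 10 or more. This took in 54 of 80 Kcn names, among 41096 genes in the count table. Just inside the minimum lay Kcnh1 and Kcnab3, with mean counts of 10.5 and 10.0, and just outside lay Kcne3 and Kcnj10, with 9.0 and 8.5. The 4 HFD-LNAME mice received high-fat feed together with 0.5% L-NAME, which blocks nitric oxide synthesis, starting at an age of 12 weeks and lasting 9 weeks. The 4 Normal Chow mice of the same age ate standard feed for those 9 weeks. The labels give the strain of all 8 mice as C57BL/5NJ and a mouse number for each. The series also describes male and female mice with wild-type (NNT+/+) or deleted (NNT-/-) NNT, the mitochondrial nicotinamide nucleotide transhydrogenase, but the labels of these libraries state no sex and no genotype.

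Libraries held 31522074 to 41047658 counts in HFD-LNAME and 41852705 to 52053633 in Normal Chow (two-sided exact permutation p = 0.0286, n = 4 each, the smallest this design allows). Members took 0.148% to 0.159% of the counts in HFD-LNAME and 0.152% to 0.159% in Normal Chow. Ventricular cardiomyocyte markers were high in all libraries, with Myl2, the ventricular myosin light chain, at 4754 to 7553 CPM (counts scaled to library size, with TMM factors) in HFD-LNAME and at 6535 to 7548 CPM in Normal Chow. All 6 tested ventricular markers had a log2 fold change below 0, with a median of -0.15, and Myl3 had an unadjusted p of 0.0378 with edgeR. The lowest values of Myl2 and Myl3 were those of HFD-LNAME 2 and 3. Atrial transcripts differed between libraries of the same group. Myl7, the atrial myosin light chain, stood at 10.2, 686, 293 and 216 CPM in the HFD-LNAME libraries, against 290.4, 0.714, 283 and 1.02 CPM in the Normal Chow libraries. The 5 libraries above 200 CPM are called libraries with atrial transcripts here, and fits within them (HFD-LNAME 2, 3 and 4 against Normal Chow 1 and 3) and within the other 3 (HFD-LNAME 1 against Normal Chow 2 and 4) are given beside the results of members with values per library, as log2 fold changes with and without atrial transcripts. Kcnc2, with 0 counts in 3 of 4 Normal Chow libraries, is described by its counts. The 12 atrial markers summed to 687 to 4972 CPM in HFD-LNAME and 825 to 3053 CPM in Normal Chow, with none at 0 in any library. The 3 libraries called without atrial transcripts thus still held counts of every marker. Most of their sum was Clu, at 436, 604.5 and 624 CPM in HFD-LNAME 1 and Normal Chow 2 and 4. Clu was at 591 to 730 CPM in the other 5, so the sum says little of how free these 3 libraries are of atrial transcripts. Among these 3, HFD-LNAME 1 held more Myl7, Myl4 and Sln than Normal Chow 2 and 4. Of the adipocyte markers, Plin1, the coat protein of fat droplets, was at 12.0 and 8.73 CPM in HFD-LNAME 2 and 3 and at 0.444 to 2.57 CPM in the other 6 libraries. In whole tissue, fewer cells of a type and less RNA per cell cannot be told apart.

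Potassium channels carry the outward current that ends the cardiac action potential and holds the resting potential. In the mouse ventricle a fast transient outward current dominates early repolarisation, helped by delayed rectifiers, while inward rectifiers set the resting potential. Tandem-pore channels give a background leak, ATP-sensitive channels link membrane potential to metabolism, and acetylcholine-gated channels slow the atria and the sinus node under vagal tone. Calcium-activated channels with large conductance relax vascular smooth muscle. Most pores are tetramers that bind accessory subunits, and several Kcn genes code for such subunits or for pore proteins that are silent on their own.

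Of the 54 members, 50 passed the low-count filter of the edgeR fit and were tested, and Kcnab3, Kcnip1, Kcng4 and Kcnh1 were not. With edgeR's quasi-likelihood test, 0 members had an adjusted p under 0.05 (0.0134% of the 14875 genes tested did), and 8 had an unadjusted p under 0.05, or 16% of those tested against 9.56% of all genes. Of these, 6 were higher and 2 lower, where 5.02% and 4.54% of all genes were. Among the 6 is Kcnc2, whose mean count of 12.4 reached the minimum of 10 only through HFD-LNAME, so that the rule favoured its direction. DESeq2's Wald test called 2 members, Kcnd2, lower, and Kcnmb1, higher (1.11% of all genes with an adjusted p were called), and limma-voom called 0 (0.00% of all genes; 7 members had an unadjusted p under 0.05). In 7 members the groups did not overlap: Kcnk6, Kcnt2, Kcnv2, Kcna1 and Kcnmb1 were higher in all 4 HFD-LNAME libraries than in any Normal Chow library, and Kcnd2 and Kcnq1 were lower. These 7 are 14% of the members tested, against 5.98% of all genes (2.74% higher and 3.24% lower). Log2 fold changes of HFD-LNAME over Normal Chow were above 0 in 34 of 50 members, with a median of 0.14, against 50.5% and a median of 0.0024 over all genes. The members' median was 0.0034 within the 3 libraries without atrial transcripts, against -0.0152 over all genes. It was 0.16 within those with atrial transcripts and 0.16 without HFD-LNAME 2 and 3, against 0.007 and -0.0017 over all genes. The members with an unadjusted p under 0.05 numbered 7 of 51 tested within the libraries with atrial transcripts, or 13.7% against 8.21% of all genes in that fit. Without HFD-LNAME 2 and 3 they numbered 4 of 54, or 7.41% against 7.7% of all genes. Within the 3 libraries without atrial transcripts, where 1 HFD-LNAME library is left and assumed to vary like the Normal Chow ones, they numbered 3 of 52, or 5.77% against 7.8% of all genes. In these last 2 fits the members' share was not above that of all genes.

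**Figure D1:**
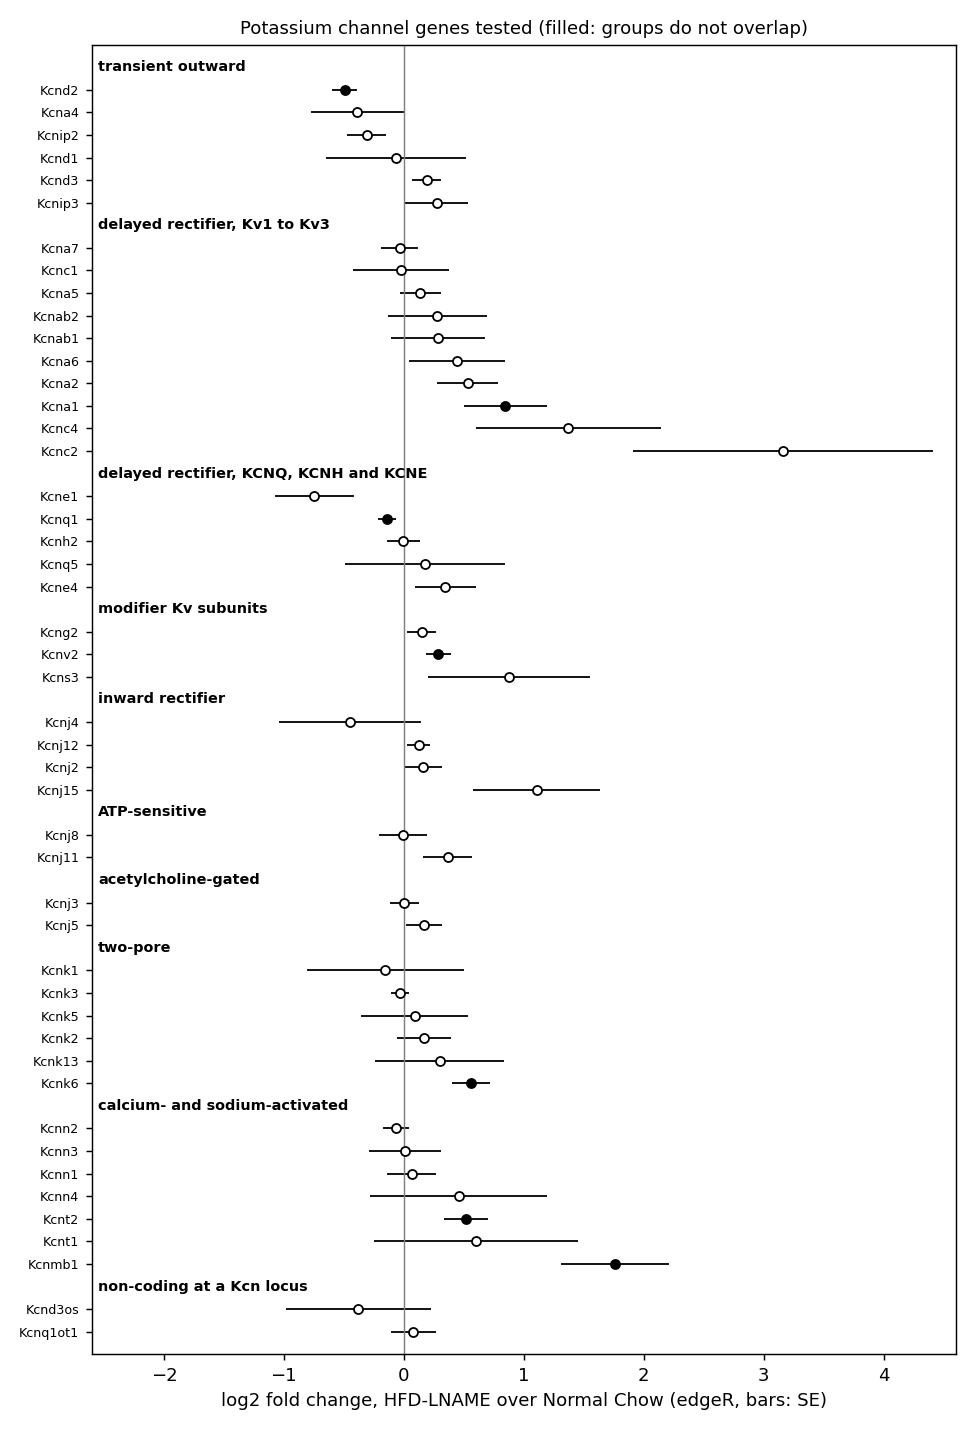
Log2 fold change of HFD-LNAME over Normal Chow (x axis) for 47 of the 50 members tested, grouped by current, with bars of 1 SE from edgeR. Filled points mark the 7 members whose groups did not overlap, with Kcnd2 and Kcnq1 left of 0 and the other 5 right of it.

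Levels per length are CPM per kilobase of exon, with exon lengths from GENCODE M21, a mouse annotation of another build than the count table. On that scale Kcnk3, which codes for the tandem-pore channel TASK-1, was the highest member (95.3 in HFD-LNAME and 97.5 in Normal Chow, group means). Kcnip2, the calcium-binding subunit of the fast transient outward current, was next (58.4 in HFD-LNAME and 72.3 in Normal Chow), ahead of Kcng2 (46.9 in HFD-LNAME and 42.3 in Normal Chow). Next came the acetylcholine-gated subunit gene Kcnj5 (28.5 in HFD-LNAME and 25.3 in Normal Chow), the rapid delayed rectifier gene Kcnh2 (21.4 in HFD-LNAME and 21.4 in Normal Chow) and Kcnj3 (21.3 in HFD-LNAME and 21.2 in Normal Chow). Kcnd2 stood at 9.14 in HFD-LNAME and 12.9 in Normal Chow, so that in Normal Chow it lay above Kcnq1, Kcnj8, Kcnj11, Kcna5, Kcnj12 and Kcnj2 in group means, and in HFD-LNAME below each of them, differences between genes that were not tested. In Normal Chow 23 of 54 members had at least 1 CPM per kilobase.

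**Figure D2:**
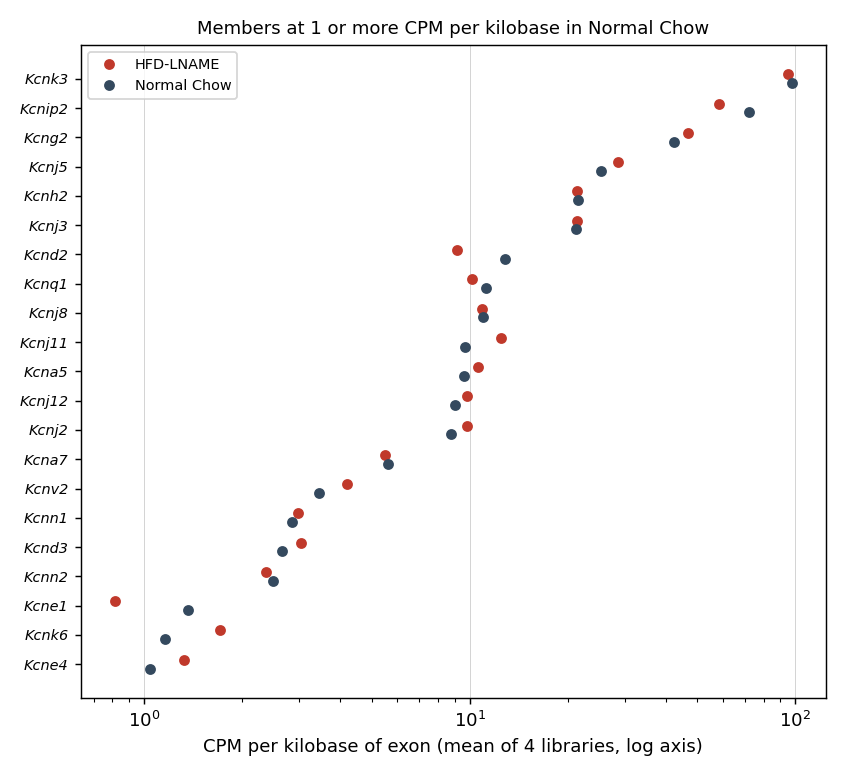
Mean CPM per kilobase of exon (log axis) for 21 of the 23 members at 1 or more in Normal Chow, with HFD-LNAME and Normal Chow means of 4 libraries each. Kcnd2 and Kcne1 are the members whose HFD-LNAME point lies furthest to the left of the Normal Chow point.

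In the transient outward group 7 genes were members and 6 were tested, with a median log2 fold change of -0.18. Kcnd2, the pore subunit Kv4.2 of the fast transient outward current (MGP_C57BL6NJ_G0030916 in the count table), stood at 48.5, 48.6, 41.8 and 49.4 CPM in the HFD-LNAME libraries, against 78.4, 68.1, 61.3 and 57.4 CPM in the Normal Chow libraries. The HFD-LNAME libraries lay close together and all below the lowest Normal Chow library. Kcnd2 thus averaged 47.1 ± 3.51 CPM in HFD-LNAME and 66.3 ± 9.22 CPM in Normal Chow (SD, n = 4 each). In edgeR's fit its log2 fold change was -0.49 ± 0.10 (SE) and its unadjusted p 0.000555. Its adjusted p was 0.216 with edgeR, 0.195 with limma-voom and 0.00734 with DESeq2, where Kcnd2 passed the threshold, and ranged from 0.00734 to 0.664 over all alternatives. The log2 fold change was -0.58 within the libraries with atrial transcripts, -0.37 within the other 3 and -0.44 without HFD-LNAME 2 and 3. Leaving out single libraries gave -0.56 to -0.40. Kcnd2 stood at 48.5 and 49.4 CPM in HFD-LNAME 1 and 4, whose Myl2 values of 7192 and 7553 CPM lay in or just above the Normal Chow range. Irx4, another ventricular marker, was at 26.6 and 38.1 CPM in these 2 libraries, against 32.0 to 42.4 CPM in Normal Chow. The part of ventricular cardiomyocyte content in the Kcnd2 values was not tested.

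Kcnd3, the related pore subunit Kv4.3, stood at 24.2, 26.0, 31.7 and 34.4 CPM in the HFD-LNAME libraries, against 25.8, 24.8, 27.1 and 24.3 CPM in the Normal Chow libraries. HFD-LNAME 3 and 4 lay above all Normal Chow libraries and HFD-LNAME 1 below them, and Kcnd3 did not pass (log2 fold change 0.19 ± 0.12 (SE), 0.22 with and -0.023 without atrial transcripts, edgeR adjusted p = 0.646). The ratio of Kcnd2 to Kcnd3 counts, which needs no scaling between libraries, was 2.004, 1.87, 1.32 and 1.43 in HFD-LNAME, against 3.04, 2.75, 2.26 and 2.36 in Normal Chow. All 4 HFD-LNAME ratios lay below all 4 Normal Chow ratios, and the ratio, chosen after the values were seen, was not tested. The other ratios formed between members overlapped between the groups. Among them, Kcnip2 over Kcnd2 counts ranged from 3.06 to 4.89 in HFD-LNAME and from 3.08 to 5.46 in Normal Chow. Kcnip2, whose protein KChIP2 binds Kv4 channels and in mice is needed for the fast transient outward current, stood at 235, 149, 186 and 242 CPM in the HFD-LNAME libraries, against 242, 245, 204 and 313 CPM in the Normal Chow libraries. HFD-LNAME 2 and 3 lay below all Normal Chow libraries and HFD-LNAME 1 and 4 among them (log2 fold change -0.31 ± 0.16 (SE), -0.21 with and -0.25 without atrial transcripts, edgeR adjusted p = 0.587). These are also the libraries lowest in the ventricular marker Myl2, at 4890 and 4754 CPM against 6535 CPM or more in the other 6, whose part in the Kcnip2 values was not tested. Without HFD-LNAME 2 and 3 the log2 fold change was -0.071, and without HFD-LNAME 2 alone or Normal Chow 4 alone it was -0.18. Kcna4, the pore subunit Kv1.4 of the slow transient outward current, stood at 0.772, 1.11, 1.76 and 1.45 CPM in the HFD-LNAME libraries, against 1.43, 1.04, 2.13 and 2.05 CPM in the Normal Chow libraries, with overlapping groups (log2 fold change -0.39 ± 0.39 (SE), -0.30 with and -1.0002 without atrial transcripts, edgeR adjusted p = 0.798). Without atrial transcripts the SE of Kcna4 was 0.88. Kcnip3 and Kcnd1 had log2 fold changes of 0.27 ± 0.26 and -0.06 ± 0.58. Kcnip1 was not tested and ranged from 0 to 26 counts in HFD-LNAME and from 0 to 52 in Normal Chow.

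**Figure D3:**
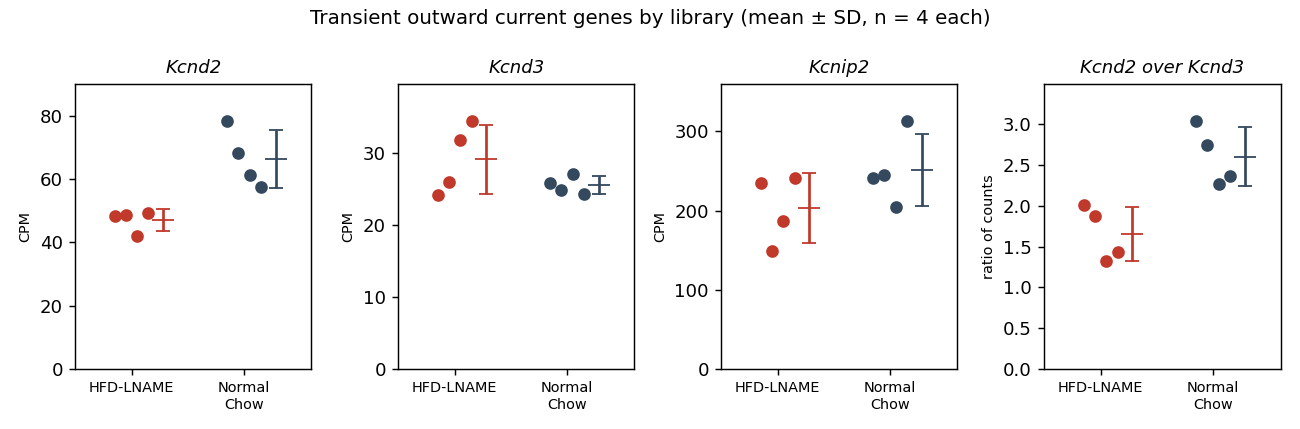
CPM of Kcnd2, Kcnd3 and Kcnip2 and the ratio of Kcnd2 to Kcnd3 counts (y axes from 0) in each HFD-LNAME and Normal Chow library, with the mean and SD of 4 libraries beside the points. The HFD-LNAME points lie below all Normal Chow points for Kcnd2 and for the ratio, and overlap them for Kcnd3 and Kcnip2.

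Promoter sequences are shown for Kcnd2 and Kcnip2, whose products form 1 channel complex, and for Kcnmb1, which with DESeq2 alone of the 3 tools passed as higher. Each is the stretch of 250 bases before the RefSeq gene start (build GRCm38.p6), at chr6:21215096-21215345 on the plus strand, chr19:45816064-45816313 on the minus strand and chr11:33962763-33963012 on the plus strand, written 5′ to 3′ on the gene's strand. Of the 54 members, 39 had an entry in the RefSeq promoter table.
Kcnd2: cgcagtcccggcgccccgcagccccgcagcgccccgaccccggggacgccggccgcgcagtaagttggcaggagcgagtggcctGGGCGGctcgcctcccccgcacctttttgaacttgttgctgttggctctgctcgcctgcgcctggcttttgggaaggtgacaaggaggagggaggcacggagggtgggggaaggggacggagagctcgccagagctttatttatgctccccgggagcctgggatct
Kcnip2: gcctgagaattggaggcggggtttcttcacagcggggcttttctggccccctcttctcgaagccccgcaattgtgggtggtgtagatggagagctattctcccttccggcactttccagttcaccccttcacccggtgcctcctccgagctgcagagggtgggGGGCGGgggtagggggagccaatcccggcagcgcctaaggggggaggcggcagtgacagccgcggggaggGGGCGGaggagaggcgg
Kcnmb1: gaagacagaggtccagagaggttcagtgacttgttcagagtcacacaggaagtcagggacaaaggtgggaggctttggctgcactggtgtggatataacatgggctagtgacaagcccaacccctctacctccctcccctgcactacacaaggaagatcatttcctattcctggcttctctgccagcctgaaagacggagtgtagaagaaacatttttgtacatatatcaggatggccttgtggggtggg
Capitals mark GGGCGG, the GC box bound by Sp1-type factors. It was found 1 time before Kcnd2, 2 times before Kcnip2 and 0 times before Kcnmb1, and 32.7% of all 32851 promoter stretches of this length hold it on either strand. Other motifs searched on both strands were ACANNTGT, the site of Iroquois factors such as Irx5, which represses Kcnd2 in the mouse ventricle, TATAAA and the CArG box of serum response factor. They stand in 6.31%, 12.4% and 1.47% of all stretches and in none of the 3 shown. A CArG box can contain TATAAA, no other motif lies within another, and a missing match says only that these letters are not in this window.

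Among the delayed rectifiers of the Kv1 to Kv3 families 13 genes were members and 12 were tested, with a median log2 fold change of 0.28. Kcna5 (Kv1.5), a pore gene of this current in mouse ventricle, stood at 26.4, 21.5, 37.3 and 36.3 CPM in the HFD-LNAME libraries, against 25.9, 33.4, 25.3 and 25.7 CPM in the Normal Chow libraries (log2 fold change 0.14 ± 0.17 (SE), 0.31 with and -0.17 without atrial transcripts, edgeR adjusted p = 0.843). HFD-LNAME 3 and 4 were above all Normal Chow libraries and HFD-LNAME 2 below them.

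Kcna1 (Kv1.1), a channel best known from the axons of nerves, stood at 1.66, 1.30, 2.24 and 2.11 CPM in the HFD-LNAME libraries, against 0.903, 0.810, 1.27 and 1.08 CPM in the Normal Chow libraries. All HFD-LNAME libraries lay above all Normal Chow libraries, at 55 to 77 counts in HFD-LNAME and 42 to 53 in Normal Chow (log2 fold change 0.85 ± 0.35 (SE), 0.80 with and 0.81 without atrial transcripts, edgeR adjusted p = 0.473). Among Schwann cell and nerve markers, Sox10, a Schwann cell transcription factor, stood at 1.29, 1.18, 1.76 and 1.83 CPM in the HFD-LNAME libraries, against 0.301, 0.540, 0.981 and 0.402 CPM in the Normal Chow libraries, and S100b was also higher in all HFD-LNAME libraries. The 8 markers of that list summed to 15.6 to 19.4 CPM in HFD-LNAME and 9.50 to 17.3 CPM in Normal Chow, 5 were tested, 4 of them with a log2 fold change above 0, and Th had 0 counts in 2 HFD-LNAME and all 4 Normal Chow libraries. Npy had 0 counts in 1 HFD-LNAME and 3 Normal Chow libraries. Their part in the Kcna1 values was not tested.

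Kcna2 (Kv1.2), which joins Kv1.1 in axonal channels, stood at 4.63, 3.84, 5.79 and 3.64 CPM in the HFD-LNAME libraries, against 3.97, 3.59, 2.11 and 2.69 CPM in the Normal Chow libraries (log2 fold change 0.53 ± 0.26 (SE), 0.54 with and 0.56 without atrial transcripts, edgeR adjusted p = 0.55), and HFD-LNAME 1 and 3 lay above all Normal Chow libraries. Kcnc2 (Kv3.2), a channel of fast-firing neurons, had 11, 50, 20 and 7 counts in the HFD-LNAME libraries, against 0, 0, 11 and 0 counts in the Normal Chow libraries. Its unadjusted p was 0.0271 and its adjusted p 0.46 with edgeR, and Normal Chow 3 lay inside the HFD-LNAME range. In this group Kcna7, Kcnc1, Kcnab2, Kcnab1, Kcna6 and Kcnc4, had log2 fold changes from -0.04 (Kcna7) to 1.37 (Kcnc4), all with overlapping groups. Kcnab3 was not tested, with 4 to 11 counts in HFD-LNAME and 45 counts in Normal Chow 1 against 0 or 1 in the other Normal Chow libraries.

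The group of KCNQ, KCNH and KCNE genes covers the slow and rapid delayed rectifiers of larger mammals, which contribute little in the adult mouse ventricle. Of 7 members 6 were tested, with a median log2 fold change of 0.03. Kcnq1 (Kv7.1), the pore of the slow delayed rectifier, stood at 41.3, 40.3, 41.2 and 43.1 CPM in the HFD-LNAME libraries, against 46.8, 44.2, 43.5 and 48.6 CPM in the Normal Chow libraries. All HFD-LNAME libraries lay below all Normal Chow libraries, by a small margin (log2 fold change -0.14 ± 0.07 (SE), -0.12 with and -0.17 without atrial transcripts, unadjusted p = 0.0779, edgeR adjusted p = 0.572). Kcnq1 shares exons with Kcnq1ot1 on the opposite strand. Kcne1 (minK), its accessory subunit, stood at 3.17, 3.13, 2.33 and 1.83 CPM in the HFD-LNAME libraries, against 5.81, 2.06, 3.995 and 5.69 CPM in the Normal Chow libraries. HFD-LNAME 4 lay below all Normal Chow libraries and the other 3 within their range, above Normal Chow 2 (log2 fold change -0.74 ± 0.33 (SE), unadjusted p = 0.0453, edgeR adjusted p = 0.512). Within the libraries with atrial transcripts the log2 fold change of Kcne1 was -1.01 and within the other 3 it was -0.29.

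Kcnh2 (ERG), the pore of the rapid delayed rectifier, stood at 122, 110.1, 92.4 and 90.2 CPM in the HFD-LNAME libraries, against 85.7, 126, 91.1 and 113 CPM in the Normal Chow libraries. The groups overlapped throughout, and the log2 fold change was -0.0032 ± 0.14 (SE), 0.14 with and 0.029 without atrial transcripts. With library totals in place of TMM scaling it turned to 0.0042. The 3 libraries without atrial transcripts held the 3 highest Kcnh2 values. Kcne4 and Kcnq5 had log2 fold changes of 0.35 ± 0.26 and 0.18 ± 0.67, with overlapping groups, and Kcnh1 was not tested (0 to 29 counts in HFD-LNAME and 0 to 25 in Normal Chow).

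Modifier subunits form no channel alone and change the gating of other Kv channels. Of 4 members 3 were tested, and all 3 had a log2 fold change above 0. Kcnv2 (Kv8.2) stood at 21.5, 25.0, 19.9 and 19.7 CPM in the HFD-LNAME libraries, against 18.7, 17.0, 17.8 and 17.1 CPM in the Normal Chow libraries. All HFD-LNAME libraries lay above all Normal Chow libraries, with HFD-LNAME 2 highest (log2 fold change 0.29 ± 0.10 (SE), 0.24 with and 0.33 without atrial transcripts, unadjusted p = 0.0182, edgeR adjusted p = 0.418). Kcng2 (Kv6.2), named here after its values were seen for its high level, averaged 140.3 ± 18.6 CPM in HFD-LNAME and 126 ± 19.2 CPM in Normal Chow (SD, n = 4 each; edgeR adjusted p = 0.743). Kcns3 had a log2 fold change of 0.88 ± 0.67. Kcng4 was not tested, with 0 to 6 counts in HFD-LNAME and 2 to 46 in Normal Chow.

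The 4 inward rectifier members overlapped between the groups. Kcnj2 (Kir2.1), the main pore of the resting current in ventricle, stood at 74.1, 45.4, 51.0 and 43.5 CPM in the HFD-LNAME libraries, against 54.1, 48.6, 49.0 and 39.8 CPM in the Normal Chow libraries. HFD-LNAME 1 was the highest of all 8 libraries (log2 fold change 0.16 ± 0.16 (SE), -0.14 with and 0.74 without atrial transcripts, edgeR adjusted p = 0.797), and without it the log2 fold change was -0.03. Kcnj12 (Kir2.2), which joins Kir2.1 in the same channels, stood at 28.2, 24.0, 27.9 and 27.9 CPM in the HFD-LNAME libraries, against 25.3, 26.3, 22.2 and 25.3 CPM in the Normal Chow libraries (log2 fold change 0.12 ± 0.09 (SE), 0.16 with and 0.13 without atrial transcripts, edgeR adjusted p = 0.726). HFD-LNAME 1, 3 and 4 lay above all Normal Chow libraries and HFD-LNAME 2 among them. The ratio of Kcnj12 to Kcnj2 counts averaged 0.524 ± 0.108 in HFD-LNAME and 0.524 ± 0.0831 in Normal Chow (SD, n = 4 each). Kcnj15 (Kir4.2) had 21, 140, 103 and 63 counts in the HFD-LNAME libraries, against 46, 77, 51 and 23 counts in the Normal Chow libraries. Scaled to CPM, HFD-LNAME 2, 3 and 4 lay above all Normal Chow libraries and HFD-LNAME 1 among them (log2 fold change 1.11 ± 0.53 (SE), 1.38 with and -0.72 without atrial transcripts, edgeR adjusted p = 0.546). Without HFD-LNAME 2 and 3 it was 0.20. Kcnj4 (Kir2.3) had a log2 fold change of -0.45 ± 0.59.

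ATP-sensitive channels pair a Kir6 pore with a sulfonylurea receptor. Kcnj11 (Kir6.2), the pore of cardiomyocytes, stood at 63.2, 35.7, 33.5 and 51.3 CPM in the HFD-LNAME libraries, against 29.9, 33.7, 31.3 and 47.5 CPM in the Normal Chow libraries. HFD-LNAME 1 and 4 lay above all Normal Chow libraries, with Normal Chow 4 next (log2 fold change 0.37 ± 0.21 (SE), 0.40 with and 0.64 without atrial transcripts, edgeR adjusted p = 0.616). It was 0.18 without HFD-LNAME 1 and 0.69 without HFD-LNAME 2 and 3, and edgeR called it in neither. Kcnj8 (Kir6.1), the pore of vascular smooth muscle cells and pericytes, stood at 37.7, 24.6, 22.2 and 27.0 CPM in the HFD-LNAME libraries, against 22.8, 36.7, 21.4 and 31.1 CPM in the Normal Chow libraries, a log2 fold change of -0.01 ± 0.20 that was 0.16 within the libraries with atrial transcripts and 0.15 within the other 3. As with Kcnh2, the 3 libraries without atrial transcripts held the 3 highest values. Abcc9, the sulfonylurea receptor SUR2, averaged 369.6 ± 50.9 CPM in HFD-LNAME and 474 ± 52.4 CPM in Normal Chow (SD, n = 4 each; log2 fold change -0.36 ± 0.11 (SE), unadjusted p = 0.00782, edgeR adjusted p = 0.335).

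Kcnj3 (Kir3.1, or GIRK1) and Kcnj5 (Kir3.4, or GIRK4) form the acetylcholine-gated channel, which is most abundant in atria and the sinus node. Kcnj3 stood at 90.3, 122, 117 and 115 CPM in the HFD-LNAME libraries, against 132, 103, 115 and 92.5 CPM in the Normal Chow libraries, a log2 fold change of 0.0035 ± 0.12 (SE) with an edgeR adjusted p of 0.997. Kcnj5 stood at 96.3, 134, 159 and 145 CPM in the HFD-LNAME libraries, against 136, 107, 131 and 101 CPM in the Normal Chow libraries (log2 fold change 0.17 ± 0.15 (SE), edgeR adjusted p = 0.767). In each group the libraries with Myl7 above 200 CPM held the higher values: for both genes HFD-LNAME 1, Normal Chow 2 and Normal Chow 4 were the 3 lowest of all 8. The log2 fold changes of Kcnj3 and Kcnj5 were -0.067 and 0.13 within the libraries with atrial transcripts and -0.12 and -0.11 within the other 3. The ratio of Kcnj3 to Kcnj5 counts was 0.937, 0.909, 0.735 and 0.794 in HFD-LNAME, against 0.973, 0.962, 0.879 and 0.918 in Normal Chow. HFD-LNAME 3 and 4 lay below all Normal Chow ratios.

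**Figure D4:**
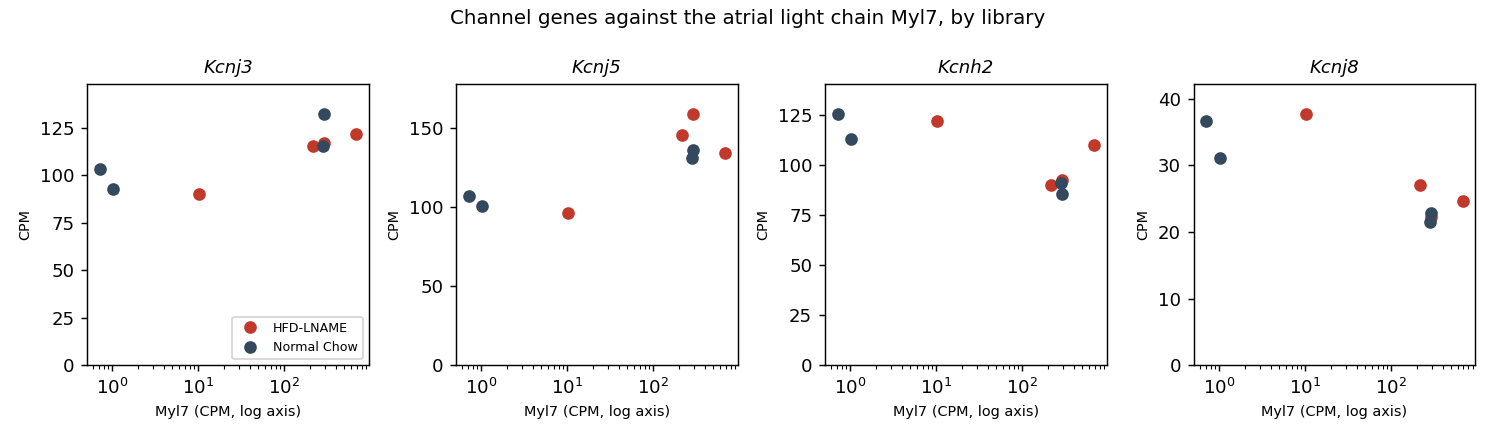
CPM of Kcnj3, Kcnj5, Kcnh2 and Kcnj8 (y axes from 0) against CPM of the atrial light chain Myl7 (log axis) in each HFD-LNAME and Normal Chow library. The 3 libraries with Myl7 below 200 CPM hold the lowest Kcnj3 and Kcnj5 values and the highest Kcnh2 and Kcnj8 values; the last 2 genes were chosen for the plot after their values were seen.

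Of the tandem-pore genes 6 were members and all 6 were tested, with a median log2 fold change of 0.13. Kcnk3 (TASK-1), an acid-sensitive leak channel, stood at 365, 371, 378 and 403 CPM in the HFD-LNAME libraries, against 379.6, 383, 416 and 371 CPM in the Normal Chow libraries. The groups overlapped with little spread (log2 fold change -0.03 ± 0.07 (SE), -0.05 with and -0.051 without atrial transcripts, edgeR adjusted p = 0.929). Kcnk6 (TWIK-2), a weak inward rectifier of this family known from vascular tissue and macrophages, stood at 6.12, 6.90, 8.49 and 6.86 CPM in the HFD-LNAME libraries, against 4.82, 4.72, 4.79 and 4.91 CPM in the Normal Chow libraries. The Normal Chow libraries were nearly identical and all HFD-LNAME libraries lay above them (log2 fold change 0.56 ± 0.16 (SE), unadjusted p = 0.00429, edgeR adjusted p = 0.281, DESeq2 adjusted p = 0.0808). It was 0.63 within the libraries with atrial transcripts and 0.34 within the other 3. The 6 macrophage markers, 5 of them with a row, summed to 107 to 155 CPM in HFD-LNAME and 84.8 to 161 CPM in Normal Chow. Of the 5 tested, 4 had a log2 fold change below 0, with a median of -0.051, and 0 had an unadjusted p under 0.05 with edgeR. The 6 endothelial markers, none at 0 in any library, summed to 624 to 759 CPM in HFD-LNAME and 529 to 654 CPM in Normal Chow. All 6 had a log2 fold change above 0, with a median of 0.14, and 2 of them, Pecam1 and Egfl7, had an unadjusted p under 0.05 with edgeR. Egfl7, a protein secreted by endothelial cells, did not overlap between the groups. The part of these cell types in the Kcnk6 values was not tested. Kcnk2 (TREK-1), a stretch-activated channel, stood at 4.03, 2.896, 3.49 and 3.47 CPM in the HFD-LNAME libraries, against 2.897, 3.82, 2.49 and 3.15 CPM in the Normal Chow libraries, with overlapping groups (log2 fold change 0.17 ± 0.22 (SE), 0.29 with and 0.21 without atrial transcripts, edgeR adjusted p = 0.861). Kcnk1, Kcnk5 and Kcnk13 had log2 fold changes from -0.15 to 0.30 with overlapping groups.

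Among the calcium- and sodium-activated channels 7 genes were members, all tested, and 6 had a log2 fold change above 0. Kcnmb1 (MGP_C57BL6NJ_G0018544), the beta-1 subunit that makes the large-conductance channel of vascular smooth muscle more sensitive to calcium, stood at 2.03, 2.17, 2.91 and 1.89 CPM in the HFD-LNAME libraries, against 0.828, 0.675, 0.933 and 0.212 CPM in the Normal Chow libraries. These are 71, 92, 96 and 69 counts in HFD-LNAME and 44, 35, 39 and 10 counts in Normal Chow, so that every HFD-LNAME library was higher at a smaller total. Kcnmb1 averaged 2.25 ± 0.456 CPM in HFD-LNAME and 0.662 ± 0.318 CPM in Normal Chow (SD, n = 4 each). In edgeR's fit its log2 fold change was 1.76 ± 0.45 (SE) and its unadjusted p 0.0022. Its adjusted p was 0.246 with edgeR, 0.230 with limma-voom and 0.0133 with DESeq2, where it passed, and ranged from 0.0133 to 0.703 over all alternatives. The log2 fold change was 1.40 within the libraries with atrial transcripts, 2.18 within the other 3 and 1.56 without HFD-LNAME 2 and 3. Its pore gene Kcnma1 was not a member, with a mean count of 5.6 over the 8 libraries.

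Among smooth muscle markers, Myh11, the smooth muscle myosin, stood at 69.5, 76.8, 142 and 56.0 CPM in the HFD-LNAME libraries, against 25.9, 42.1, 51.9 and 26.1 CPM in the Normal Chow libraries, and Tagln was also higher in all HFD-LNAME libraries than in any Normal Chow library. The 11 smooth muscle and pericyte markers, all tested and none at 0 in any library, summed to 3171 to 3633 CPM in HFD-LNAME and 3005 to 3382 CPM in Normal Chow, with 9 log2 fold changes above 0 and a median of 0.28. Most of that sum was Des, at 2074 to 2558 CPM over the 8 libraries, a gene that cardiomyocytes also express. Without Des the other 10 summed to 1075 to 1264 CPM in HFD-LNAME and 865 to 1077 CPM in Normal Chow. Their part in the Kcnmb1 values was not tested.

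Kcnt2, a sodium-activated channel, stood at 6.29, 8.76, 7.49 and 5.33 CPM in the HFD-LNAME libraries, against 4.50, 4.90, 5.26 and 4.76 CPM in the Normal Chow libraries. All HFD-LNAME libraries lay above all Normal Chow libraries, HFD-LNAME 4 only just (log2 fold change 0.52 ± 0.18 (SE), 0.56 with and 0.38 without atrial transcripts, unadjusted p = 0.0152, edgeR adjusted p = 0.393). With library totals in place of TMM scaling, HFD-LNAME 4 lay below Normal Chow 3 and the groups overlapped. Without HFD-LNAME 2 and 3, the libraries highest in Plin1, the log2 fold change was 0.26. The 12 adipocyte markers summed to 584 to 920 CPM in HFD-LNAME and 549 to 669 CPM in Normal Chow, and all 10 tested had a log2 fold change above 0, with a median of 2.35. Most of that sum was Fabp4, at 414 to 752 CPM over the 8 libraries, which endothelial cells also express. Without Fabp4 the other 11 summed to 137 to 197 CPM in HFD-LNAME and 88.6 to 106 CPM in Normal Chow. The largest parts of this were Lipe and Cidea, at 63.6 to 88.8 and 37.5 to 43.8 CPM in HFD-LNAME. In Normal Chow they stood at 37.96 to 61.79 and 23.81 to 35.98 CPM. Both were highest in HFD-LNAME 1, where the adipocyte marker Adipoq lay inside the Normal Chow range. The sum alone thus does not show more adipocytes in all 4 HFD-LNAME libraries. Groups did not overlap in 3 of the 10 tested, Lipe, Cidea and Cfd. Adipoq overlapped, at 1.20, 5.42, 3.64 and 0.984 CPM in the HFD-LNAME libraries, against 1.41, 0.289, 0.168 and 0.0423 CPM in the Normal Chow libraries. Ucp1 had 0 counts in 2 HFD-LNAME and 2 Normal Chow libraries, and Retn in 2 HFD-LNAME and 3 Normal Chow libraries. Their part in the Kcnt2 values was not tested. The small-conductance genes Kcnn1, Kcnn2 and Kcnn3 had log2 fold changes of 0.07 ± 0.21, -0.07 ± 0.11 and 0.01 ± 0.30, and Kcnt1 and Kcnn4 of 0.60 ± 0.85 and 0.46 ± 0.74, all with overlapping groups.

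**Figure D5:**
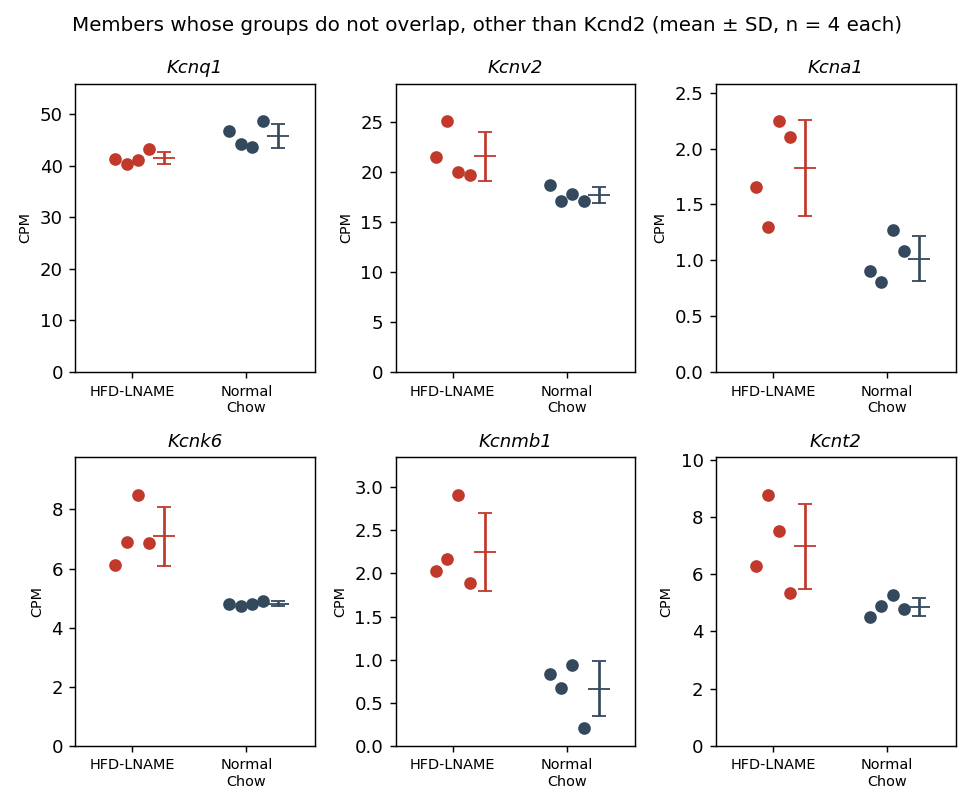
CPM (y axes from 0) of the 6 members other than Kcnd2 whose groups did not overlap, in each HFD-LNAME and Normal Chow library, with the mean and SD of 4 libraries beside the points. Kcnq1 was lower in HFD-LNAME and Kcnv2, Kcna1, Kcnk6, Kcnmb1 and Kcnt2 were higher.

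The name rule also took in 2 non-coding transcripts at channel loci, which code for no channel. Kcnq1ot1, the imprinted antisense transcript of Kcnq1, averaged 4.63 ± 0.722 CPM in HFD-LNAME and 4.38 ± 0.436 CPM in Normal Chow (SD, n = 4 each), and Kcnd3os, opposite Kcnd3, averaged 0.599 ± 0.362 CPM in HFD-LNAME and 0.784 ± 0.276 CPM in Normal Chow (SD, n = 4 each). Their log2 fold changes were 0.08 ± 0.19 and -0.38 ± 0.61, neither past the threshold with edgeR. In GENCODE M21, 19 of the 54 members share exon bases with a gene on the opposite strand, among them Kcnk3, Kcng2, Kcnj3, Kcnq1, Kcnd3 and Kcnt2. As the strand setting of the counting is not given in the sources used here, such reads cannot be told apart.

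Of 24 partners and regulators of these channels, 21 were tested. With edgeR 0 passed, and 4 had an unadjusted p under 0.05 in the higher and 2 in the lower direction. Together these are 28.6% of those tested, against 9.56% of all genes. Groups did not overlap in 9.52% of those tested, against 5.98% of all genes. The median log2 fold change of the partners and regulators was -0.06. Those with the smallest p were Abcc9, given above, Lrrc52, Hey2 and Mef2d. Lrrc52, from a family of accessory subunits of large-conductance channels, averaged 1.84 ± 1.45 CPM in HFD-LNAME and 0.593 ± 0.0879 CPM in Normal Chow (SD, n = 4 each; log2 fold change 1.63 ± 0.53 (SE), edgeR adjusted p = 0.364). Hey2, a transcription factor of ventricular identity, averaged 6.27 ± 0.798 CPM in HFD-LNAME and 4.47 ± 0.708 CPM in Normal Chow (SD, n = 4 each; log2 fold change 0.49 ± 0.18 (SE), edgeR adjusted p = 0.437), and in both genes the groups did not overlap, by small margins. Mef2d had a log2 fold change of 0.21 ± 0.08. Irx5 and Irx3, Iroquois regulators of Kcnd2 expression across the mouse ventricular wall, did not pass. Irx5 averaged 4.21 ± 1.503 CPM in HFD-LNAME and 5.16 ± 1.86 CPM in Normal Chow (SD, n = 4 each; edgeR adjusted p = 0.809), and Irx3 averaged 26.8 ± 4.13 CPM in HFD-LNAME and 30.0 ± 5.58 CPM in Normal Chow (SD, n = 4 each; edgeR adjusted p = 0.782).

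All 19 depolarising channel and gap junction genes were tested, with 0 past the threshold in edgeR and a median log2 fold change of -0.03. An unadjusted p under 0.05 was found for 2 in the higher and 1 in the lower direction, or 15.8% of those tested against 9.56% of all genes. Groups did not overlap in 5.26% of those tested, against 5.98% of all genes. Gja1, connexin 43 of the ventricular gap junction, stood at 295, 460.3, 502 and 489.6 CPM in the HFD-LNAME libraries, against 697, 588, 638 and 593 CPM in the Normal Chow libraries. All HFD-LNAME libraries lay below all Normal Chow libraries, HFD-LNAME 1 the lowest (log2 fold change -0.53 ± 0.15 (SE), edgeR adjusted p = 0.277), and DESeq2 called it (adjusted p = 0.0293). Cacna1h, a T-type calcium channel, had a log2 fold change of 1.99 ± 0.60 and its 3 lowest libraries were those without atrial transcripts. The sodium-calcium exchanger Slc8a1 had one of -0.19 ± 0.10. Groups overlapped in both genes. Cacna1c, the L-type calcium channel, had a log2 fold change of -0.03 ± 0.09; it and the 2 Irx genes were chosen for their roles after the values were seen.

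The authors' deposited table compares the same libraries. In the authors' deposited table Kcnd2 has a log2 fold change of -0.49 and an adjusted p of 0.00889, and Kcnmb1 has 1.77 and 0.0207. These are the 2 members with an adjusted p under 0.05 there, where 1.10% of the genes with an adjusted p have one. The next smallest in the authors' deposited table is Kcnk6, at a log2 fold change of 0.56 and an adjusted p of 0.12.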

How the data were processed

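Left ventricular RNA of 8 mice was sequenced from libraries made with the Illumina TruSeq RNA kit, per the labels' protocols. The authors deposited raw counts per gene. Tools named in the submitters' processing notes are STAR 2.6, Trim Galore 0.4.0, DESeq2 1.22.1 and bcl2fastq 1.8.4. The build named there is human, whereas the row names are of the C57BL/6NJ mouse annotation, so no coordinates of counted genes are printed. The counting program and its strand setting are unknown here. The authors' deposited table of log2 fold changes, p-values and adjusted p-values also gave the gene names, and its 8 per-sample columns were not used. Columns were matched to samples through the mouse number in each title, and libraries carry numbers by accession order within a group.

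The main test was the quasi-likelihood test of edgeR 4.0.16 (R 4.3.3) on the counts of all genes that passed filterByExpr (minimum count 10), with TMM factors and Benjamini-Hochberg adjustment over those 14875 genes, at a threshold of 0.05 and without covariates. SE is the log2 fold change over the square root of F. DESeq2 1.42.0 and limma-voom (limma 3.58.1) ran on the same genes. All p-values measure the spread between these libraries, each with its own mouse number. Any 2 libraries of a group differed by more than sampling noise (chi-square per degree of freedom 25.3 to 64.7). The steps were tested on simulated data.

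Members, gene lists and tests were chosen with earlier results of these data known. Values are given for a set of cardiac current genes, members past the threshold or with groups that do not overlap, and the 10 members with the smallest p; from the lists of partners and of depolarising channels, for those among the 4 with the smallest p. Some genes that this rule or the lists take in are counted but not reported here by name.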

Additional observations from a re-analysis of the deposited data

Results flagged for a closer look

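In 24 members, each group of 4 libraries was searched for a library far from the other 3 (by Dixon's criterion, which chance meets in about 1 of 20 groups), and 4 of 48 groups held one. Kcnd2 was at 41.8 CPM in HFD-LNAME 3, against 48.5 to 49.4 CPM in the other HFD-LNAME libraries. Kcnj12 was at 24.0 CPM in HFD-LNAME 2, against 27.9 to 28.2 CPM in the other HFD-LNAME libraries. Kcna5 was at 33.4 CPM in Normal Chow 2, against 25.3 to 25.9 CPM in the other Normal Chow libraries. Kcnc2 was at 0.263 CPM in Normal Chow 3, against 0 in the other Normal Chow libraries. Without HFD-LNAME 3 the log2 fold change of Kcnd2 was -0.44.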

How the results depend on the processing

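The number of members called was 0 with edgeR under every other scaling, filter, thinning, covariate or set of libraries tried and with limma-voom, and 2 with DESeq2 (Kcnd2 and Kcnmb1). Over all genes edgeR called 2; DESeq2 called 165, limma-voom 0, and edgeR 34 without a filter beyond a count above 0, 1 after thinning to the smallest total, 0 with the atrial marker score as a covariate, 0 within the libraries with atrial transcripts, 52 within the other 3 and 0 without HFD-LNAME 2 and 3. Leaving out single libraries gave 0 to 3. The cause of these differences was not tested. Members with groups that do not overlap numbered 6 (12%) with library totals or after thinning, against 5.77% and 5.88% of all genes. With library totals the groups of Kcnt2 overlapped. When single libraries were left out, which makes non-overlap easier, members without overlap numbered 7 to 10 (14% to 20%), against 8.88% to 11.4% of all genes. Members with an unadjusted p under 0.05 were then 11.3% to 23.1%, against 7.8% to 10.3% of all genes.

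Of 24 members named with values in a fit, 15 kept their sign in every alternative fitted, among them Kcnip2, Kcne1 and Kcnj11. Kcnd2, Kcnq1, Kcnk6, Kcnt2, Kcnv2, Kcna1 and Kcnmb1 also kept theirs, but in these the groups did not overlap with TMM scaling. Fits on fewer libraries could therefore hardly turn their sign, and its keeping adds no support. The sign turned within the 3 libraries without atrial transcripts for Kcnd3 (-0.023 ± 0.19, SE), Kcna5 (-0.17 ± 0.22), Kcnj5 (-0.11 ± 0.14) and Kcnj15 (-0.72 ± 1.19). It also turned there for Kcnj3 (-0.12 ± 0.14), Kcnj8 (0.15 ± 0.18) and Kcnh2 (0.029 ± 0.14). Each of these values was smaller than its SE. Within the libraries with atrial transcripts the sign turned for Kcnj2 (-0.14), Kcnj3 (-0.067), Kcnj8 (0.16) and Kcnh2 (0.14). It turned for Kcnj3, Kcnj8 and Kcnh2 with the atrial score (-0.10, 0.19 and 0.12) and without HFD-LNAME 2 and 3 (-0.10, 0.21 and 0.032). For Kcnh2 it also turned with limma-voom (0.0032), library totals (0.0042) and thinning (0.0011). Leaving out single libraries gave -0.035 to 0.25 for Kcnj2, -0.074 to 0.10 for Kcnj3, -0.18 to 0.16 for Kcnj8, -0.088 to 0.10 for Kcnh2 and -0.062 to 0.0042 for Kcnk3. Leaving out the filter or requiring a mean count of 10 let all 54 members be tested. No paired analysis was possible because the labels give no replicate numbers shared between the groups. Members under about 1 CPM rest on few counts and have wide SEs.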
